A study of Mus musculus with 6 samples.

Results

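A set of 9 genes of the alveolar lining (Hopx, Rtkn2, Akap5, Sema3a, Ager, Pdpn, Fam189a2, Aqp5 and Cldn18) was followed across the cells of the bleomycin-injured mouse lung. They are 9 of the 32285 genes in the files and were selected on their lower values in summed epithelial cells after ipilimumab, so that comparison is described for them and not tested. The cells came from the right lung of 6 male hCTLA4 mice, which carry exons 2 and 3 of human CTLA4 on a C57BL/6 background. The methods give their age as 12 weeks without naming the time point. All 6 mice received 2 oropharyngeal doses of bleomycin at 1.25 U per kg. From day 21 after the second dose, 3 mice received the isotype antibody IgG1 and 3 received ipilimumab, labelled as an anti-CLTA4 antibody. Ipilimumab was given at 5 mg per kg 2 times a week for 4.5 weeks. All mice carried the knock-in and all were injured, so that no uninjured or wild-type lung was compared. Each mouse gave 1 single-cell 3' library, and the values are unique molecular identifiers (UMIs), each standing for 1 captured RNA molecule.

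The gas-exchange surface of the lung is covered by flat alveolar type 1 (AT1) cells, and cuboidal alveolar type 2 (AT2) cells make surfactant and can become AT1 cells after injury. Cells on the way from AT2 to AT1 pass through a transitional state rich in keratins such as Krt8. Hopx is a homeodomain cofactor, Akap5 an anchoring protein for protein kinase A and Sema3a a secreted guidance cue. Ager encodes the receptor for advanced glycation end products and Pdpn the membrane glycoprotein podoplanin. Aqp5 encodes a water channel and Cldn18 a tight junction protein.

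The 9 genes lie on 8 chromosomes of the mm10 build. By the GENCODE vM21 annotation, Hopx spans chr5:77086988-77115121 on the minus strand, Cldn18 spans chr9:99689461-99717267 on the minus strand, Ager spans chr17:34597862-34600936 on the plus strand and Rtkn2 spans chr10:67979570-68059740 on the plus strand. Hopx, Rtkn2, Fam189a2 and Cldn18 each overlap 1 gene on the opposite strand, and Sema3a overlaps 4 annotated genes, 3 of them on its own strand. The RefSeq promoter table (GRCm38.p6) held 10 starts for 8 of the 9 genes. Cldn18 and Hopx have 2 starts each, which 3' counts cannot separate. The 250 bases before both Cldn18 starts and before the Fam189a2 start are shown, because these promoters are where the core of the NKX2-1 motif was found or, for the upstream Cldn18 start, was not. NKX2-1 is the transcription factor that marks lung epithelium. Capitals mark CAAGTG or its reverse complement CACTTG.
Cldn18, chr9:99717268-99717517, minus strand: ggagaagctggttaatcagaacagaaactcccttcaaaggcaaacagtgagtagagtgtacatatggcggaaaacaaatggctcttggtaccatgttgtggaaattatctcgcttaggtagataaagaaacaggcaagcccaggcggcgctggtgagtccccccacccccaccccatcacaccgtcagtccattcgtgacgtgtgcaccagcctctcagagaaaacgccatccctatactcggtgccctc
Cldn18, chr9:99710064-99710313, minus strand: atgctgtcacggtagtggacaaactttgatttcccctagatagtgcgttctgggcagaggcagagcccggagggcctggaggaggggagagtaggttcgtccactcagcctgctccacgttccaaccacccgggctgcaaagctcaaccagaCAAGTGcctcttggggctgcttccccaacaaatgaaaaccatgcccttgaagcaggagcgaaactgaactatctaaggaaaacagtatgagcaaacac
Fam189a2, chr19:24031020-24031269, minus strand: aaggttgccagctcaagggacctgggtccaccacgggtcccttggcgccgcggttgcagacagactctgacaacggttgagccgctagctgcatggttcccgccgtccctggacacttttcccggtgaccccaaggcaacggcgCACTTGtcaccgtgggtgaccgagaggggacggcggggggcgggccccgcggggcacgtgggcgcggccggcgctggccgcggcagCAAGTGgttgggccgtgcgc
The motif stood in 2 of the 10 promoters of the 9 genes and in 11.6% of the 32851 promoters in the table. The TEAD core CATTCC, searched on both strands, stood in 0 of the 10 and in 12.6% of all promoters. These matches describe letters only.

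The 6 libraries held from 37666042 to 48612412 UMIs and gave from 3359 to 4512 cells each, 25108 in all. Cells were sorted by marker genes that include none of the 9 genes, and 302 cells were epithelial. Ipilimumab mouse 1 stood apart: it had 22056 barcodes with 100 UMIs or more, against 4834 to 6230 in the other mice, and 203 of the 302 epithelial cells. The median epithelial cell of that mouse had 1013 UMIs. Pairs of libraries shared from 0 to 9 cell barcodes, and 64 barcodes occurred in at least 2 libraries. Nothing in the labels states how the mice were processed beyond 1 library each, so p-values measure the spread between these 6 libraries.

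Few UMIs of these genes came from epithelial cells. Of 43284 UMIs of the 9 genes in all cells, 10.5% lay in epithelial cells and 55.2% in alveolar macrophages, the resident phagocytes of the airspace. Aqp5, Cldn18 and Ager were the epithelial genes, with 97.1%, 87.9% and 72.9% of their UMIs in epithelial cells. Rtkn2 followed with 54.2% of 249 UMIs. Pdpn and Fam189a2 had most of their UMIs in alveolar macrophages, with 87.5% of 19550 UMIs and 89.6% of 4469 UMIs there. Akap5 had 66.7% of its 832 UMIs in alveolar macrophages. Sema3a had 57.3% of its 316 UMIs in endothelial cells, and Hopx had 38.7% of 14186 UMIs in T and NK cells and 16.9% in endothelial cells. A share of UMIs reflects both the level per cell and the number of cells of a type.

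**Figure D1:**
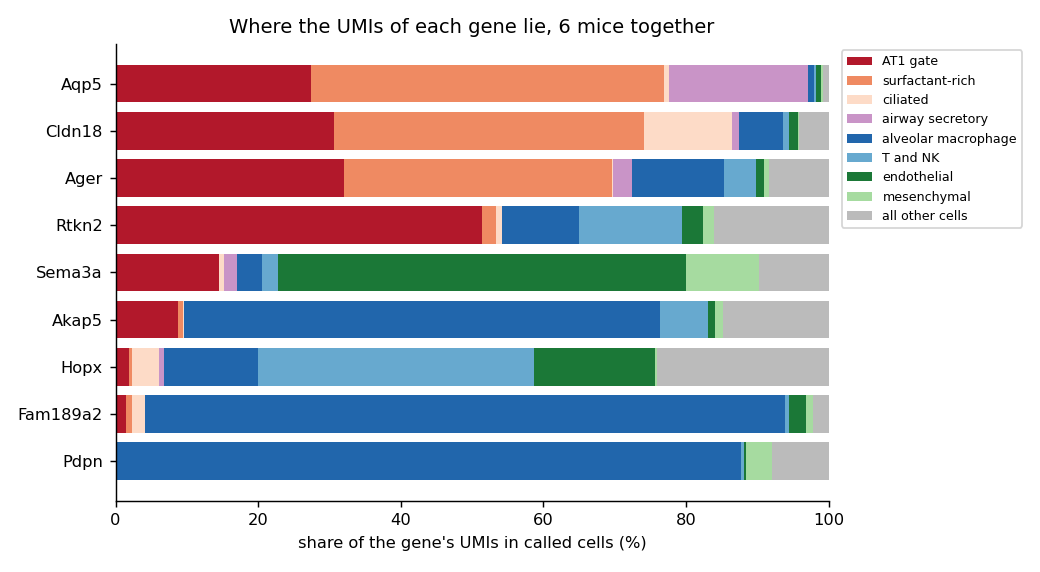
Share of the UMIs of each gene (x axis, percent of its UMIs in called cells, 6 mice together) by class of cell. Aqp5, Cldn18 and Ager lie mostly in epithelial classes, and Pdpn and Fam189a2 lie mostly in alveolar macrophages.

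AT1 cells were sought with 10 other AT1 genes (Clic5, Col4a3, Col4a4, Spock2, Igfbp2, Gramd2, Scnn1g, Cryab, Emp2 and Krt7). Candidates were epithelial cells with under 5% surfactant UMIs, under 5% airway secretory UMIs and fewer than 3 ciliated genes. Those with at least 3 of the 10 genes entered the AT1 gate. Only 23 of 25108 cells did so, 3, 10 and 1 in the IgG1 mice and 3, 4 and 2 in the ipilimumab mice. The gate and the members met in the same cells. Of the 23 gate cells, 15 held UMIs of at least 5 of the 9 genes. The counts were 10 of 183 surfactant-rich cells, 11 of 3583 alveolar macrophages and 1 of 5836 T and NK cells, not adjusted for depth. Ipilimumab mouse 1 gave 160 of the 183 surfactant-rich cells, at a median of 1016.5 UMIs, and 5 of these 160 held 5 genes. In ipilimumab mice 2 and 3 it was 3 of 7 and 1 of 7, and in IgG1 mice 1 and 2 it was 1 of 4 and 0 of 5. With each cell thinned to 500 UMIs, 50% to 100% of the gate cells of a mouse held any of the 9 genes. Of the surfactant-rich cells of a mouse, 20% to 75% did. In the summed gate cells of a mouse, Cldn18 reached a mean of 2262 CPM (its UMIs scaled to a common total of the summed cells), Ager 1929 CPM and Rtkn2 1127 CPM (n = 6 mice), with SDs of 2734, 2723 and 1604 CPM. Rtkn2 was at a mean of 2.21 CPM or less in the surfactant-rich, ciliated and endothelial cells. Levels are per UMI and 3' counts are not scaled by gene length.

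The AT1 gate was not uniform. In 8 cells the 9 genes together made up from 24024 to 40044 CPM, and in the other 15 from 0 to 10507 CPM. A line at 20000 CPM between them was drawn after the values were seen. The 8 cells came from 4 mice, 2 from IgG1 mouse 1, 4 from IgG1 mouse 2 and 1 each from ipilimumab mice 1 and 2, and held 66.6% of the members' UMIs in the gate. The AT1 gate genes summed to 15115 CPM in these 8 cells and to 2181 CPM in the other 15. The 18 alveolar transition genes ran the other way, with 3836 and 14166 CPM. Surfactant genes stood at 57.3 and 4415 CPM, and airway secretory genes at 28.6 and 4617 CPM. The median cell had 1969 UMIs among the 8 and 19346 among the 15. Transition genes had UMIs in all 23 cells. Of the 134 transition UMIs of the 8 cells 62.7% lay in 3 cells, and of the 3930 of the 15 cells 51.7% lay in 3. Ciliated genes were the higher in the 8 cells, at 1345 CPM against 57.7 CPM, with 78.7% of the 47 ciliated UMIs of the 8 in 3 cells. Surfactant UMIs were found in 1 of the 8 cells and in 9 of the 15, and 3 cells held 91.1% of those of the 15. Airway secretory UMIs were found in 1 of the 8 and in 6 of the 15, with 99.8% of those of the 15 in 3 cells. Summed by mouse, airway secretory genes in the gate ran from 0 to 20107 CPM, so the gate was not free of them. Genes of basal airway cells (Krt5, Krt14, Krt15 and Trp63) ran from 0 to 1009 CPM. Both were highest in ipilimumab mouse 3. Whether some of these 15 are doublets was not tested, and no doublet score was used.

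**Figure D2:**
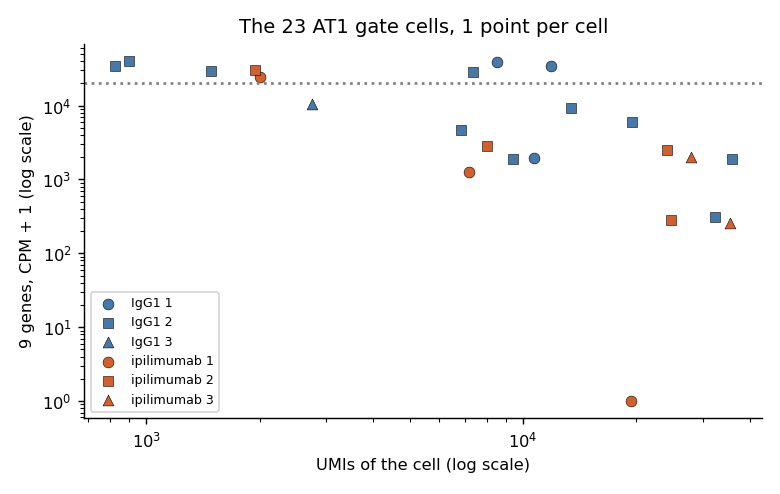
Each point is 1 of the 23 AT1 gate cells, with its UMIs (x axis, log scale) and the CPM of the 9 genes plus 1 (y axis, log scale), and the dotted line marks 20000 CPM. The 8 cells above the line hold 826 to 11869 UMIs, and the cell at the bottom has none of the 9 genes.

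The AT1 gate held 16.7% (95% exact binomial interval 3.58% to 41.4%), 50% (27.2% to 72.8%) and 9.09% (0.23% to 41.3%) of the epithelial cells of the IgG1 mice. In the ipilimumab mice it held 1.48% (0.306% to 4.26%), 19.0% (5.45% to 41.9%) and 6.90% (0.846% to 22.8%). The groups overlapped, at 25.3% ± 21.8 and 9.14% ± 8.997 (SD, n = 3 each). Without IgG1 mouse 2 the difference shrank from -16.1 to -3.74 percentage points. The percentage also moves with the surfactant-rich cells, of which ipilimumab mouse 1 had 160 and the other mice 0 to 7. Of all cells, the gate made up 0.108% ± 0.106 and 0.0702% ± 0.0248, so that no difference in the frequency of AT1 gate cells was detectable with 23 cells. Intervals cover counting error only.

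All 9 genes had UMIs in epithelial cells of both groups. Summed over the 9 genes, epithelial cells held 2874, 2772 and 596 CPM in the IgG1 mice and 1494, 1019 and 706 CPM in the ipilimumab mice. IgG1 mice 1 and 2 were above all ipilimumab mice, and IgG1 mouse 3 was below them. Of the 9 genes, 6 passed the filter on low counts in the epithelial sums, and 5 of these 6 were lower with ipilimumab. Their median log2 fold change was -0.88, where the median over all 7173 genes was 0.01. With no filter on low counts, 8 of the 9 genes were lower and the median was -1.21. A gene was called where edgeR's quasi-likelihood test gave an adjusted p below 0.05 with a log2 fold change beyond 0.3 in size. In the same fit 1 gene of 7173 (0.0139%) was called and 297 had an unadjusted p under 0.05. The gene called was Plcb1, a phospholipase C, named after its values were seen, at 3.18, 0 and 0 TMM-scaled CPM with IgG1 and 117, 153 and 114 with ipilimumab. Ambient RNA was estimated at 0.429% to 6.92% of the epithelial UMIs of a mouse, highest in ipilimumab mouse 1.

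Of the 6 members that passed the filter, Rtkn2 was the 1 whose groups did not overlap after TMM scaling. Its epithelial level was 233, 76.2 and 38.7 CPM in the IgG1 mice and 13.4, 6.67 and 0 CPM in the ipilimumab mice, a log2 fold change of -4.06. The 0 of ipilimumab mouse 3 allows up to 3.59 CPM at its depth. Of the genes tested, 9.73% had groups that did not overlap and 4.67% were lower in all ipilimumab mice, and the choice of the members used this contrast. Rtkn2 had 85, 25 and 10 epithelial UMIs with IgG1 and 11, 4 and 0 with ipilimumab. It passed the filter on low counts through the IgG1 mice, so its lack of overlap is a description only. Cldn18 stood at 942, 762 and 151 CPM with IgG1 and at 409.6, 220.2 and 121 CPM with ipilimumab, a log2 fold change of -1.25, and its groups overlapped through IgG1 mouse 3. Ager stood at 689.8, 802 and 11.6 CPM with IgG1 and at 402, 325 and 146 CPM with ipilimumab. Its log2 fold change was -0.73, and IgG1 mouse 3 had the lowest level of the 6.

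Hopx was at 509, 412 and 317 CPM with IgG1 and at 275, 257 and 219 CPM with ipilimumab. These raw levels did not overlap, whereas after TMM scaling, which adjusts for the composition of the sums, IgG1 mouse 3 lay between ipilimumab mice at 298 CPM and the log2 fold change was -0.62. Fam189a2 was at 87.6, 146 and 50.3 CPM and at 49.8, 48.4 and 31.1 CPM, a log2 fold change of -1.03, and its groups also overlapped after TMM scaling. Aqp5 was at 175, 418 and 11.6 CPM and at 319.6, 138 and 171 CPM. Its log2 fold change was 0.19 and its direction depended on the mice used: without ipilimumab mouse 1 it was -0.24, and without IgG1 mouse 3 it was -0.37.

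Akap5, Sema3a and Pdpn did not pass the filter. Akap5 was at 109, 67.1 and 3.87 CPM with IgG1 and at 6.08, 16.7 and 5.98 CPM with ipilimumab, and Pdpn was at 57.5, 30.5 and 0 CPM and at 13.4, 5.00 and 10.8 CPM. Both overlapped through IgG1 mouse 3. Sema3a was at 71.2, 57.9 and 11.6 CPM with IgG1 and at 4.86, 1.67 and 1.20 CPM with ipilimumab, from 48 and 6 UMIs in all, and its raw levels did not overlap. The share of all genes without overlap on raw levels is not given here.

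**Figure D3:**
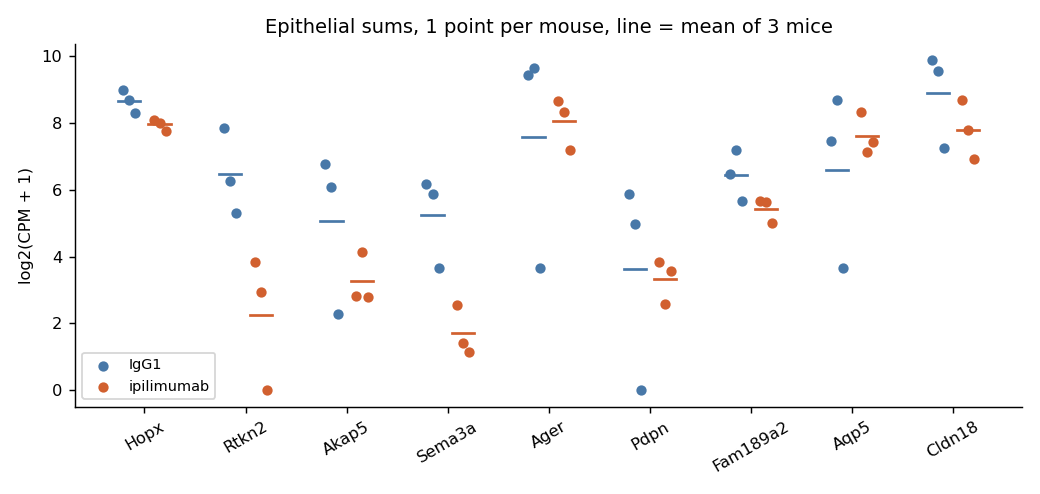
log2(CPM + 1) of each gene in the summed epithelial cells of each mouse (y axis), with 1 point per mouse and a line at the mean of the 3 mice of a group. On this unscaled CPM, Hopx, Rtkn2, Sema3a and Fam189a2 are lower in each ipilimumab mouse, although Hopx and Fam189a2 overlap after TMM scaling, and the lowest IgG1 point of each of the 9 genes belongs to IgG1 mouse 3. The share of all genes lower in each ipilimumab mouse on unscaled CPM is not given here.

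The epithelial sums were then divided by class of cell. The AT1 gate cells held 72.1%, 75.0% and 18.8% of the members' epithelial UMIs in the IgG1 mice and 4.64%, 24.4% and 11.02% in the ipilimumab mice. For Rtkn2, Akap5 and Sema3a the gate held 94.8%, 88.0% and 85.2% of the epithelial UMIs of all mice, for Ager 44.0%, for Cldn18 34.9%, and for Hopx and Aqp5 28.1% and 28.3%. When the gate cells were left out, the 9 genes summed to 877, 1134 and 489 CPM in the IgG1 mice and 1476, 854 and 679 CPM in the ipilimumab mice. The group means changed from 2081 ± 1287 and 1073 ± 397 CPM to 833 ± 325 and 1003 ± 418 CPM (SD, n = 3 each). The median log2 fold change was then 0.15, over the 5 members that still passed the filter, of which 2 were lower. Rtkn2, at -4.06 with the gate cells, was the member that no longer passed. Ager was at 1.37 in place of -0.73, Hopx at 0.15 in place of -0.62, and Cldn18 at -0.36 in place of -1.25. These values come from the sums on which the genes were selected, and whether AT1 cells account for the lower sums was not tested. Leaving out the surfactant-rich cells instead moved the median to -1.81, with 6 of 6 members lower.

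The gate UMIs are part of the epithelial sums on which the genes were selected, so their levels in the gate are a description. The gate cells of the IgG1 mice held 24331, 5339 and 10507 CPM of the 9 genes and those of the ipilimumab mice 1997, 2534 and 1025 CPM. These sums rest on 1 to 10 cells a mouse, the value of IgG1 mouse 3 on 1 cell of 2760 UMIs, and 2 cells of IgG1 mouse 1 alone carried 403 and 333 of the 1739 member UMIs in the gate. The value of ipilimumab mouse 3 rests on 2 cells, which together had the highest airway secretory and basal CPM of any mouse in the gate. Cells over 20000 CPM were 2 of 3, 4 of 10 and 0 of 1 with IgG1 and 1 of 3, 1 of 4 and 0 of 2 with ipilimumab. Pooled over the gate cells of a group, 14 with IgG1 and 9 with ipilimumab, Ager stood at 2716 and 491 CPM, Cldn18 at 2333 and 285 CPM, and Hopx at 1324 and 378 CPM. Rtkn2 stood at 736 and 59.7 CPM and Akap5 at 371 and 86.2 CPM. Aqp5 stood at 841 and 398 CPM. The IgG1 values depended on the mice: without IgG1 mouse 1, Ager stood at 1601 CPM, Cldn18 at 1310 CPM, Hopx at 789 CPM, Rtkn2 at 268 CPM and Akap5 at 153 CPM. Without IgG1 mouse 2, which gave 10 of the 14 cells, Ager stood at 6879 CPM, Cldn18 at 6465 CPM, Hopx at 3306 CPM, Rtkn2 at 2775 CPM and Akap5 at 1210.4 CPM. Aqp5 stood at 828 CPM and 827 CPM. The ipilimumab values depended on the mice too. With any 1 ipilimumab mouse left out, Ager ran from 261 to 721 CPM, Cldn18 from 163 to 492 CPM and Hopx from 315 to 527 CPM. Rtkn2 ran from 32.7 to 103 CPM and Akap5 from 65.3 to 103 CPM. By mouse, Hopx was at 3568, 798 and 362 CPM with IgG1 and at 631, 476 and 173 CPM with ipilimumab, and the groups overlapped. Rtkn2 was at 2700 CPM, 196 CPM and 3623 CPM with IgG1, from 84, 25 and 10 UMIs, and at 175, 68.0 and 0 CPM with ipilimumab, where it had 5, 4 and 0 UMIs. Sema3a had 46 UMIs in the 14 IgG1 gate cells and 0 in the 9 ipilimumab gate cells. The 0 allows up to 19.9 CPM in those 9 cells, where the 14 IgG1 cells held 285 CPM together. That limit rests on 150746 UMIs, of which the 2 ipilimumab cells over 20000 CPM held 1998 and 1940. In those 2 cells the 0 sets a much looser limit. In the gate, 6 cells carried all the Sema3a, and 45.7% of it was in 1 cell.

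**Figure D4:**
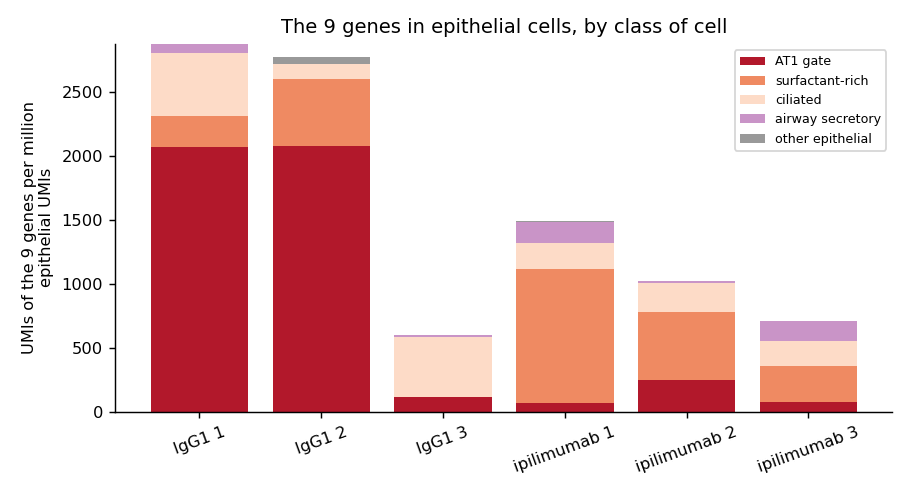
CPM of the 9 genes in the summed epithelial cells (y axis) in each mouse, split by the class of epithelial cell that carried them. IgG1 mice 1 and 2 differ from the other 4 mice by the AT1 gate segment, and the surfactant-rich segment is the largest in the 3 ipilimumab mice.

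The surfactant-rich cells also carried Ager, Aqp5 and Cldn18. Summed over the 9 genes it was 1631 and 2013 CPM in the IgG1 mice that had such cells and 1901, 1618 and 1432 CPM in the ipilimumab mice, and the groups overlapped. Ager was at 394 and 589 CPM with IgG1 and at 660.3, 737 and 535 CPM with ipilimumab, and Aqp5 at 412 and 341 CPM and at 406, 271 and 399.6 CPM, and both overlapped. Cldn18 was at 769 and 1024 CPM with IgG1 and at 649, 527 and 424 CPM with ipilimumab, lower in each ipilimumab mouse. The share of all genes lower in each ipilimumab mouse in these cells is not given here. With 9 IgG1 cells in 2 mice, no test was made. Sema3a had 0 UMIs in all 183 surfactant-rich cells and Rtkn2 had 5. Hopx was at 0 to 113 CPM there and at 245 to 543 CPM in ciliated cells, where 58 of 69 cells held it. Ciliated cells also gave 41.8% of the epithelial Fam189a2.

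Most other AT1 genes had lower values in the same epithelial sums and contrast that chose the members, so they are no independent support. Of 19 AT1 genes outside the members, 15 were tested in the epithelial sums, 14 were lower, 0 were called, 3 had an unadjusted p under 0.05 by edgeR and the median log2 fold change was -0.66. Over all 7173 genes 49.5% were lower, and 297 had an unadjusted p under 0.05 by edgeR. Lmo7, an actin-binding adaptor, had a log2 fold change of -0.71 (SE 0.267, adjusted p = 0.931 by edgeR) and Emp2, a membrane protein, one of -0.36. Timp3, a metalloproteinase inhibitor, was the exception at 0.73. Of 18 alveolar transition genes, 17 were tested, 9 lower and 8 higher, with 0 called and a median of -0.04. Krt8 stood at -0.47, Lgals3 at -1.20 and Nupr1 at 0.20. Of 17 AT2 genes other than surfactant genes, 17 had higher values, with 0 called and a median of 1.13, and Cxcl15, Scd1 and Slc34a2 stood at 1.36, 1.596 and 1.13. IgG1 mouse 3 had 0 surfactant-rich cells and ipilimumab mouse 1 had 160. Between the other mice 10 of the 17 had a higher mean with ipilimumab and 7 a lower one. Whether the surfactant-rich cells of these 2 mice account for the count of 17 was not tested. Slc34a2 was at 594, 1209 and 0 TMM-scaled CPM with IgG1 and at 2055, 1021 and 870.5 with ipilimumab. Without the same 2 mice 14 of the 15 AT1 genes had a lower mean with ipilimumab, a comparison added after seeing the data. The IgG1 mice kept, 1 and 2, held 3 and 10 of the 14 IgG1 gate cells. The share of all genes higher or lower without these 2 mice is not given here, so neither count is read as a result about the lists. Of the 19 AT1 genes, 10 defined the gate.

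Outside the epithelium the members were tested in 7 classes, in 18 tests, and 0 were called by edgeR, with 3 at an unadjusted p under 0.05. DESeq2 gave an adjusted p for 15 of the 18 and called 0. In each of these classes 0 genes (0%) were called by edgeR, from 520 to 814 genes had an unadjusted p under 0.05, and DESeq2 called from 6 to 50 genes. The smallest unadjusted p was that of Hopx in T and NK cells. There it was at 79.7, 87.0 and 87.3 TMM-scaled CPM with IgG1 and at 117, 108 and 117 with ipilimumab, higher in 3 of 3 mice. The means were 84.7 ± 4.32 and 114 ± 5.27 (SD, n = 3 each), a log2 fold change of 0.43 with SE 0.078. The unadjusted p was 0.00034 by edgeR and the adjusted p was 0.882 over 12569 genes, of which 664 had an unadjusted p under 0.05. In this class 10.5% of genes had groups that did not overlap. Over 13 alternatives the fold change ran from 0.38 to 0.46 and the adjusted p from 0.0579 to 0.9995.

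Hopx was then read in cells with and without Cd3, a split chosen after the values were seen. In cells with a UMI of Cd3e, Cd3d or Cd3g it was at 76.8, 85.9 and 86.5 CPM with IgG1 and at 122, 101 and 129 CPM with ipilimumab. These groups did not overlap, but these cells are most of the class in which Hopx had already been seen to separate. The share of genes without overlap in this subset is not given here. In cells with Klrb1c or Ncr1 and no Cd3 UMI it was at 89.9, 96.8 and 79.6 CPM and at 104, 123 and 65.0 CPM, and the groups overlapped. Cells with a Cd3 UMI were 74.3% ± 6.49 and 73.9% ± 3.98 of the class. Whether the difference in Hopx was confined to them was not tested.

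Pdpn in neutrophils was at 34.3, 41.0 and 29.9 TMM-scaled CPM with IgG1 and at 46.1, 50.3 and 56.6 with ipilimumab. The log2 fold change was 0.52 (SE 0.207), with an adjusted p of 0.524 by edgeR, and 14.9% of neutrophil genes had groups that did not overlap. In alveolar macrophages, which hold most Pdpn, it was at 212, 199 and 172 and at 132, 256 and 252, with ipilimumab mouse 1 the lowest of the 6. Its log2 fold change there was 0.14 (SE 0.233, adjusted p = 0.924 by edgeR). Fam189a2 in the same cells was at 49.1, 54.8 and 44.7 and at 53.0, 53.1 and 44.0, a log2 fold change of 0.01 with SE 0.112.

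Sema3a in endothelial cells was at 14.3, 50.8 and 109 TMM-scaled CPM with IgG1 and at 26.5, 26.6 and 17.1 with ipilimumab. Its log2 fold change was -1.31 (SE 0.528, adjusted p = 0.472 by edgeR), and without IgG1 mouse 3 it was -0.25. Hopx in endothelial cells was at 378, 404 and 655 and at 537, 419.8 and 422, with a log2 fold change of -0.06. In B cells and other myeloid cells Hopx stood at log2 fold changes of -0.28 and -0.36, with adjusted p of 0.776 and 0.703 by edgeR. In endothelial cells 3 of the 4 members tested were lower and 1 was higher, and in alveolar macrophages 2 of 6 were lower and 4 were higher.

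**Figure D5:**
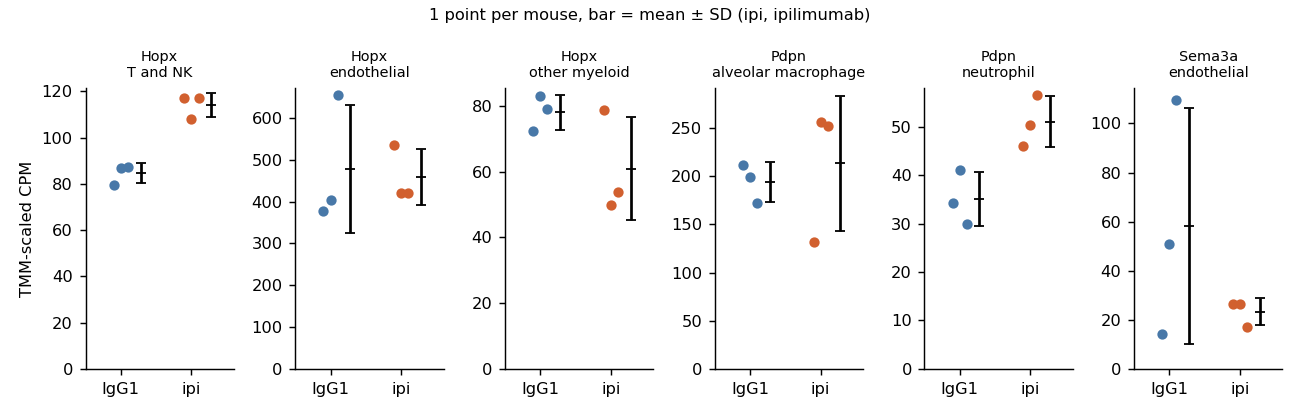
TMM-scaled CPM (y axes, from 0) of Hopx, Pdpn and Sema3a in classes outside the epithelium, with 1 point per mouse and bars for mean ± SD. The ipilimumab mice lie above the IgG1 mice for Hopx in T and NK cells and Pdpn in neutrophils, and the groups overlap elsewhere.

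Across 54 sums of a mouse and a class with at least 5 cells, the genes whose log2(CPM + 10) followed the summed members most closely included Adgrg1 (Pearson r = 0.88), Pde4d (0.87), Rai14, Tnfaip1, Ctnnb1, Abcd3, Coa3, Atp11a and Unc13b. Ctnnb1 encodes a protein of adherens junctions. The sums share libraries and 1 of the 54 came from the AT1 gate, so the measure ranks genes across other classes. Among the members, Fam189a2 followed the sum best (0.79) and Pdpn least (0.05). Each member is itself part of that sum, so these values are a description only.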

How the data were processed

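Right lungs of 6 mice were measured, 3 given IgG1 and 3 given ipilimumab. The deposited values are raw counts of UMIs per gene and barcode, filled and empty, aligned by the authors to mm10. The matrix headers name Cell Ranger 4, the submitters' processing notes Cell Ranger 7.0.0, and the methods another version. Normalization and ambient correction by the authors came later and are not in these counts.

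Barcodes were called by UMI total (1 in 10 of the 99th percentile of the top 5000) or, from 500 UMIs, by a profile unlike ambient RNA (FDR 0.01), with at least 200 genes and at most 10% mitochondrial UMIs. Marker gates without the 9 genes set classes. Cells in 2 lineage gates whose shares lay within 5 times of each other were removed as mixed (116 cells); no doublet score was used. No gate took 3704 cells, and 12 immune cells had no subclass; these entered no comparison. UMIs were summed per mouse and class (at least 5 cells) and tested over all genes with edgeR 4.0.16 (quasi-likelihood, TMM, filterByExpr, Benjamini-Hochberg, adjusted p under 0.05 and absolute log2 fold change over 0.3), with DESeq2 1.42.0 as an alternative in R 4.3.3. CPM is without a pseudocount unless given. Scripts were tested on simulated data.

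The members and lists were chosen with earlier results of these data known. The genes named are the 9 members, the 3 genes with most epithelial UMIs in each list, any called, and the 10 closest in pattern, of which 1 is not reported here. Mice were not treated as pairs by number: correlations of the deviations of same-numbered mice ran from -0.24 to 0.14, and 2 of 24 exceeded 0.1. Mice of unlike number were not compared in this way, so whether same-numbered mice were processed together was not tested. Alternatives changed the normalization, the filter, the cell calls, the gates and the mice. Depth was 37666042 to 48612412 UMIs a library.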

Additional observations from a re-analysis of the deposited data

Results flagged for a closer look

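Aqp5 in barcodes not called as cells was higher in each ipilimumab mouse than in each IgG1 mouse. It stood at 2.87, 3.30 and 0.355 CPM with IgG1 and at 5.93, 5.70 and 5.87 CPM with ipilimumab, with means of 2.18 ± 1.59 and 5.84 ± 0.117 CPM (SD, n = 3 each). These levels rest on 9, 11 and 1 Aqp5 UMIs with IgG1 and on 60, 21 and 20 with ipilimumab. These barcodes enter no comparison, and the difference was not tested. In the cells that no gate took, Akap5 was at 0.675, 0.904 and 0.773 CPM with IgG1 and at 1.26, 1.29 and 2.35 CPM with ipilimumab. Its ipilimumab mean was 1.63 CPM. These levels rest on 32 Akap5 UMIs in 3704 cells of all mice, and the difference was not tested either. Of all genes with at least 10 UMIs, 3.52% were higher in each ipilimumab mouse in the barcodes not called and 6.2% in the cells that no gate took. In mixed cells, the third group of barcodes, it was 5.9%. For the 9 genes, 2 of 27 combinations of a gene and a group of barcodes were so. The limit of 10 UMIs was not applied to these 27. Some fell below it, such as Sema3a with 2 UMIs in mixed cells and Aqp5 with 3 in cells that no gate took.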

How the results depend on the processing

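The median log2 fold change of the members in epithelial sums turned from -0.88 to 0.15 without the AT1 gate cells, and moved to -2.34 without airway cells, a setting chosen after seeing the data. These medians cover 6, 5 and 9 members, those that passed the filter in each setting. Leaving out 1 mouse at a time gave medians from -1.77 to -0.66, over 7 or 9 members, so that the medians are not over the same genes. Without the AT1 gate cells Hopx was at 0.15 and Ager at 1.37. Aqp5 reversed to -0.40 without surfactant-rich cells, to -0.59 without airway cells, to -0.37 without IgG1 mouse 3 and to -0.24 without ipilimumab mouse 1, in a range of -0.37 to 1.11 when any 1 mouse was left out. The 1 epithelial gene called became 51 with no low-count filter, 7 by DESeq2, 0 with cells above the UMI threshold and 0 to 0 without any 1 mouse. With no low-count filter 1 member was called outside the epithelium, Sema3a in endothelial cells (adjusted p = 0.00135 by edgeR, against 0.00135 to 0.956 over its alternatives). The share of all endothelial genes called in that setting is not given here, so the call is not read as a result about Sema3a. Fold changes near 0 also changed sign when 1 mouse was left out: Hopx in endothelial cells ran from -0.21 to 0.24, Pdpn in alveolar macrophages from -0.017 to 0.39, Pdpn in mesenchymal cells from -0.068 to 0.31 and Fam189a2 in alveolar macrophages from -0.057 to 0.092. Hopx in endothelial cells was at 0.020 with cells above the UMI threshold. The cause of these changes was not tested. The main fit did not pair mice by number. With the replicate block the epithelial median was -0.76, 0 genes were called and Ager stood at 0.012 in place of -0.73. The difference in the AT1 gate share ran from -24.2 to -3.74 percentage points over 13 alternatives. With 23 AT1 gate cells, and 1 to 10 a mouse, cell number limits these values.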
